A study of Mus musculus with 46 samples.

Results

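Type IV collagen is encoded in the mouse by 6 genes, Col4a1 to Col4a6, and all 6 were taken by their symbols from each of the 7 count tables, out of 21812 genes in 6 of the tables and 21793 in the EPSC table. The series measured RNA by sequencing in 46 libraries of mouse EPSCs, pluripotent stem cells, and of primitive endoderm (PrE) and epiblast cells derived from them. The series title names N6-methyladenosine, an RNA modification whose writer complex includes Virma and Mettl3 and whose readers include Igf2bp3; the modification itself was not measured here. The groups were CD140+ cells (PrE-E) and CD140- cells (EPI-E) of EPSC cultures in PrE-inducing medium, 2 libraries each, and the VE and EPI portions of embryoids of day 5 made with EPSCs and GBL-1, which the labels do not describe further, 6 libraries each. Induced cultures (PrEdiff) were labelled Virma cKO and WT, Mettl3 cKO and WT, or siIgf2bp3 and siNC (a control siRNA), with 2 libraries each. PrEdiff cultures and uninduced EPSCs (EPS) were also treated with actinomycin D, which blocks transcription, and sampled at 0, 1, 2 and 3 h, with 2 libraries per state and time. A last table held 2 EPSC libraries with no comparison group. The labels do not give how or when the conditional deletions were induced, which exons they remove, how many clones were used, or whether replicates are separate cultures, so p-values measure the spread between libraries, which may be technical.

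Collagen IV chains assemble into trimers in the endoplasmic reticulum and then into the sheet-like network of basement membranes. The α1 and α2 chains, products of Col4a1 and Col4a2, form the trimer found in nearly all basement membranes, while α3, α4 and α5 form a trimer of kidney, lung and inner ear, and α5 and α6 form one of skin and smooth muscle. In the early mouse embryo PrE and its descendants secrete α1 and α2 with laminins, and parietal endoderm builds the thick Reichert's membrane from them.

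Col4a1 and Col4a2 lie head to head on chromosome 8 and share a promoter region, and the remaining genes form a Col4a3 and Col4a4 pair and a Col4a5 and Col4a6 pair. The RefSeq windows around the annotated starts (250 bases before to 50 after, build GRCm38.p6) are shown for Col4a1 (chr8:11312777-11313076, minus strand) and Col4a2 (chr8:11312555-11312854, plus strand), because the results turn on both genes moving together. The capitals mark the 78 bases at chr8:11312777-11312854 that both windows hold, read from opposite strands. The counts were made by the authors on another build, mm39, and no coordinate of the counts is used here.
Col4a1: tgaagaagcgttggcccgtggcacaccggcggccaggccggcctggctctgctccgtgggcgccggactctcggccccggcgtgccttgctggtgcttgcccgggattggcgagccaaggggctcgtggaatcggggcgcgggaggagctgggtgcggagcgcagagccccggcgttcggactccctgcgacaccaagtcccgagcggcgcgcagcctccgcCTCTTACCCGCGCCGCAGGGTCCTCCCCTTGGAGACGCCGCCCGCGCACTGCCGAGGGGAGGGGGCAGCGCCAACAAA
Col4a2: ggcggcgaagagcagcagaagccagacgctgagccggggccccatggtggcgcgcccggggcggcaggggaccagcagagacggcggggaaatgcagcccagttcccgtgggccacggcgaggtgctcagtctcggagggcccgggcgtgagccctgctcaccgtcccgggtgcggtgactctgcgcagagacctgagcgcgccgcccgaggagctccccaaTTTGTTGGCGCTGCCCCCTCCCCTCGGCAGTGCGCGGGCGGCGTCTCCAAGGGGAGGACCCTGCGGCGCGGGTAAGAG

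The windows held 74.0% G and C for Col4a1 and 73.7% for Col4a2. A search of both strands found CCAAT, the core of the CCAAT box, 1 time in each window, and 37.4% of all 32851 RefSeq windows held it. GGGCGG, a GC box, was found 1 time in the Col4a1 window and 3 times in the Col4a2 window, with 35.7% of all windows holding it. The GATA motif was searched as AGATAA or its variant AGATAG, and as TGATAA or its variant TGATAG, and had no match in either window, while 29.8% of all windows held at least 1 of them. ACAAAG and ACAAT, cores of SOX motifs, were absent from both as well, with 42.9% of all windows holding 1 or more. Windows were matched for 5 of the 6 genes, all but Col4a3.

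Total counts ran between 6854433 and 22280769 per library. Virma fell by 0.82 on the log2 scale in Virma cKO (adjusted p = 1.12e-06), whereas Mettl3 differed by -0.02 in the libraries labelled Mettl3 cKO (adjusted p = 0.978) and Igf2bp3 by 0.11 in those labelled siIgf2bp3 (adjusted p = 0.577). A set of 10 PrE markers summed to 1.57 to 1.60% of counts in PrE-E and 0.0256 to 0.0265% in EPI-E, and to 1.11 to 1.24% in embryoid VE and 0.0444 to 0.0622% in embryoid EPI. The EPS libraries at 3 h stood apart: Col4a1, Col4a2 and Col4a5 had CPM 2.16, 2.23 and 2.19 times those at 2 h although transcription was inhibited, so the slopes in EPS and their differences from PrEdiff are also given without them. PrEdiff rose from 2 to 3 h as well, by smaller factors of 1.37, 1.34 and 1.1, and slopes over 0 to 2 h are given for both states. Between replicates of the actinomycin D table, the chi-square statistic over its degrees of freedom was 1.21 to 1.32, little above counting noise, against 1.6 to 20.6 in the other tables.

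Col4a1 and Col4a2 were the chains in use in every state. Per length of gene model, they made up at least 96.19% of the summed signal of the 6 genes in all 46 libraries. Col4a5 supplied up to 3.65%, its highest share, in EPSC, and 0.00430 to 0.0170% in PrE-E. Col4a3 had 53 counts over all 46 libraries and Col4a4 had 68, with 0 counts in 35 and 28 libraries. Col4a6 had 121 counts, 13 at most in 1 library. These 3 genes were too low for nearly all tests: the filter on low counts was passed in all 6 main comparisons by Col4a1 and Col4a2, in 5 by Col4a5, in 1 by Col4a4 and in 0 by Col4a3 and Col4a6. Intervals and limits of counts cover counting error only.

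Levels of Col4a1 and Col4a2 differed widely between groups, with PrE-E at the top and the epiblast groups at the bottom for both genes. PrE-E had 10802 and 10779 CPM (library-scaled counts, trimmed-mean factors within each table) of Col4a1 and 6317 and 6152 CPM of Col4a2. Per kilobase, Col4a1 was the 11th and Col4a2 the 28th most abundant of 21144 genes in PrE-E, against 5106th and 6026th in EPI-E. Next came siNC with a mean of 4029 ± 620.1 CPM of Col4a1 and Mettl3 WT with 1942 ± 104 CPM (SD, n = 2 each). Virma WT at 1801 ± 57.3 CPM (n = 2) differed from Mettl3 WT by less than their summed SDs. PrEdiff at 0 h had 933 ± 4.21 CPM (n = 2) and embryoid VE 840.0 ± 19.3 CPM (n = 6). At the low end, the ranges of embryoid EPI (43.4 ± 4.58 CPM, n = 6) and EPI-E (38.3 ± 0.915 CPM, n = 2) overlapped. Tables were scaled separately, so levels across them are set side by side only. In bulk RNA, fewer cells of a type and less RNA per cell cannot be told apart.

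**Figure D1:**
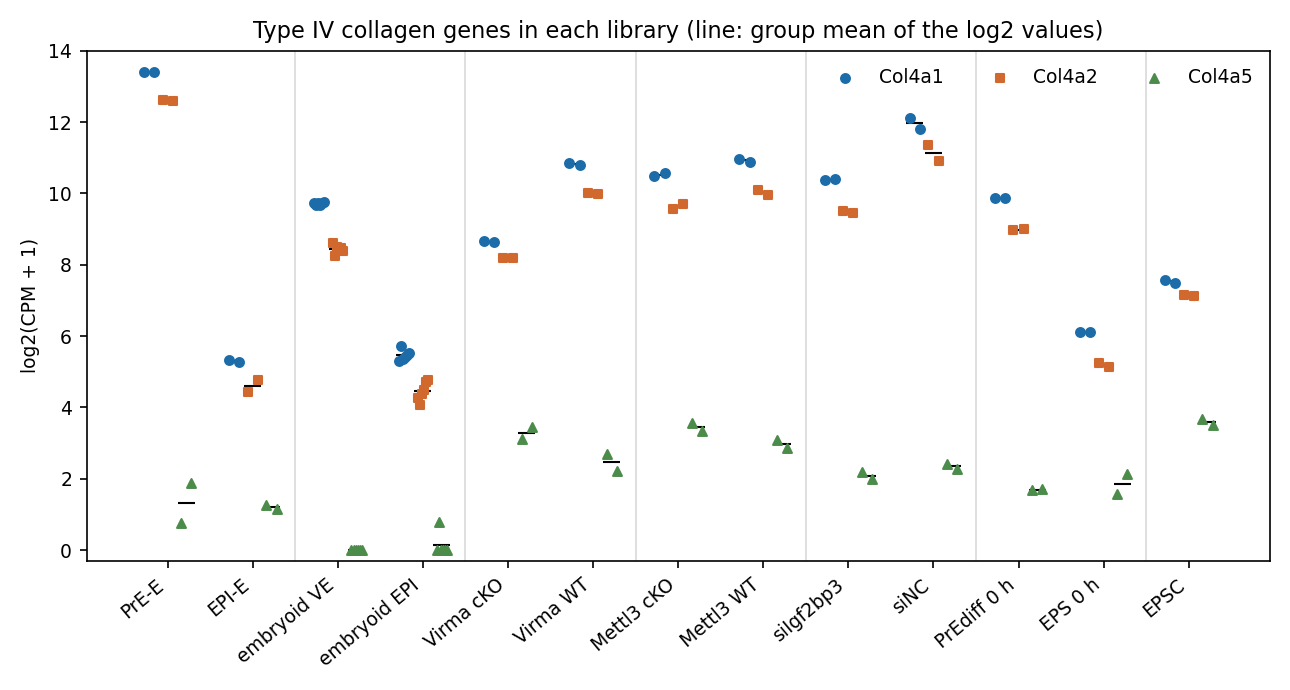
Levels of Col4a1, Col4a2 and Col4a5 as log2(CPM + 1) in each library of 13 groups, with vertical lines between the count tables and short lines at group means of the log2 values. Col4a1 lies at 10802 and 10779 CPM in PrE-E and at 39.0 and 37.7 CPM in EPI-E, and Col4a5 stays at or below 11.9 CPM in every group.

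In the comparison of CD140+ with CD140- cells, Col4a1 and Col4a2 were among the most strongly raised genes. Col4a1 had 140166 and 167448 counts in PrE-E and 589 and 496 counts in EPI-E, and Col4a2 had 81967 and 95563 counts in PrE-E and 308 and 349 in EPI-E. In PrE-E, Col4a1 alone took 1.05% of all counts. The log2 change was 8.14 ± 0.05 for Col4a1 (281-fold, SE, adjusted p = 2.82e-18) and 8.06 ± 0.09 for Col4a2 (267-fold, adjusted p = 4.21e-14, edgeR's quasi-likelihood test with Benjamini-Hochberg adjustment), and 99.3% of tested genes lay below each. Col4a5, which encodes the α5 chain, had 0.694 and 2.70 CPM in PrE-E and 1.39 and 1.22 CPM in EPI-E, ranges that overlapped, with a log2 difference of 0.39 ± 1.03 (adjusted p = 0.771) that was -0.93 without PrE-E replicate 2. Thus 2 of the 3 members tested were called, both higher, where 57.7% of all tested genes were called and 28.3% were higher.

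The genes that make and secrete collagen IV moved in the same direction in PrE-E. Of 18 tested members of a list of 19 folding, modification and secretion genes, 15 rose and 0 fell, with a median log2 change of 2.63 beside -0.03 over all tested genes. Serpinh1, the collagen chaperone HSP47, changed by 5.46 ± 0.08, P4ha2, a prolyl hydroxylase subunit, by 6.24 ± 0.12 and Plod2, a lysyl hydroxylase, by 4.86 ± 0.09. Among 5 tested crosslinking genes 3 rose, among them Pxdn, the peroxidasin that forms sulfilimine bonds in the collagen IV network (3.27 ± 0.09), and Loxl2, a lysyl oxidase (4.82 ± 0.33). Of 14 tested basement membrane partners 10 rose and 3 fell; the laminin chains Lamb1 and Lamc1 changed by 6.15 ± 0.05 and 4.98 ± 0.04, while Col18a1, a collagen of basement membrane zones, changed by -5.74 ± 0.11. Of 8 tested collagen receptors 4 rose, including Itgb1, the β1 integrin, by 1.35 ± 0.08, and 1 fell.

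In embryoids, Col4a1 and Col4a2 were again higher in the endoderm portion, but by a smaller factor. Col4a1 had a lowest, median and highest value of 813, 845 and 862 CPM in VE and of 38.7, 42.4 and 51.4 CPM in EPI. Col4a2 had 300.1, 352 and 386 CPM in VE and 15.8, 20.5 and 26.4 CPM in EPI. In this comparison 72.5% of tested genes were called, 34.5% higher. The log2 change was 4.28 ± 0.06 for Col4a1 (adjusted p = 2.92e-22) and 4.04 ± 0.11 for Col4a2 (adjusted p = 3.65e-18). The VE over EPI change minus the PrE-E over EPI-E change was -3.69 ± 0.10 for Col4a1 and -3.84 ± 0.19 for Col4a2 on the log2 scale (adjusted p = 1.66e-17 and 1.65e-11, with 20.6% of genes called), in a joint fit in which table and system coincide. Parietal endoderm markers, a 10-gene list, summed to 0.235 to 0.270% of counts in VE and 0.162 to 0.172% in PrE-E, and PrE markers to 1.11 to 1.24% in VE and 1.57 to 1.60% in PrE-E. In the same joint fit 8 of 10 PrE markers were called lower and 1 higher, with a median log2 difference of -3.21. Of 9 tested parietal markers 3 were lower and 1 higher (median -0.61), beside a median of 0.01 over all genes. The part of these markers in the difference was not tested.

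Other chains were close to absent from embryoids. Col4a5 had 0 counts in each of 6 VE libraries, which allows a level of up to 0.062 CPM over the group, and in 5 of 6 EPI libraries, with 7 counts in EPI replicate 2. Col4a3 had 25 counts over the VE libraries, 19 of them in replicate 2, and 1 count over the EPI libraries. Of 16 tested folding and secretion genes 14 rose and 2 fell in VE (median log2 change 1.84, beside -0.05 over all genes), with P4ha1, another prolyl hydroxylase subunit, at 2.82 ± 0.08 and P4hb, its partner subunit, at 1.72 ± 0.05. Loxl2 (4.80 ± 0.24) and Pxdn (2.66 ± 0.30), the only crosslinking genes tested there, both rose. Of 13 tested partners 10 rose and 2 fell, with Sparc, a collagen-binding glycoprotein, at 4.09 ± 0.05 and Lama1, the laminin α1 chain, at 3.22 ± 0.10.

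Before actinomycin D, induced cultures held more Col4a1 and Col4a2 than uninduced ones. Col4a1 had 936 and 930.1 CPM in PrEdiff at 0 h and 68.4 CPM in both EPS libraries at 0 h. Col4a2 had 502 and 511 CPM in PrEdiff and 36.7 and 34.1 CPM in EPS. The log2 changes were 3.77 ± 0.03 and 3.84 ± 0.03, 13.6- and 14.3-fold (adjusted p = 4.40e-299 and 1.62e-277), in a comparison in which 80.5% of tested genes were called, 37.6% higher. The changes were 3.77 and 3.84 again without the EPS libraries of 3 h. Col4a5 had 2.24 and 2.25 CPM in PrEdiff and 1.99 and 3.43 CPM in EPS (log2 difference -0.28 ± 0.21, adjusted p = 0.215), which became -0.62 (adjusted p = 0.0139) without EPS replicate 1 and 0.17 without EPS replicate 2. Of 19 folding and secretion genes 15 rose and 1 fell in PrEdiff, P4ha1 by 4.02 ± 0.04 and P4ha2 by 4.19 ± 0.05. Crosslinking genes were split, 4 higher and 3 lower of 7, with Loxl2 at 3.99 ± 0.07, Pxdn at 2.05 ± 0.06 and Tgm2, a transglutaminase, at 2.18 ± 0.15.

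The perturbed PrE-induced cultures carry labels that name writers and a reader of m6A, of which Virma alone was measured lower in its labelled libraries. Igf2bp3 was lower in Virma cKO as well, with a log2 change of -1.26 ± 0.13 (adjusted p = 1.6e-09). Virma cKO had the lowest Col4a1 and Col4a2 of the unsorted induced cultures. Col4a1 had 405 and 395 CPM in Virma cKO and 1842 and 1761 CPM in Virma WT. Col4a2 had 289 and 290.0 CPM in Virma cKO and 1025 and 1020.0 CPM in Virma WT. Changes of -2.17 ± 0.06 and -1.82 ± 0.06 on the log2 scale, falls of 4.5- and 3.53-fold, had adjusted p = 5.56e-25 and 6.09e-22. They placed Col4a1 and Col4a2 above only 1.37% and 1.98% of tested genes, and 2 of 4 members tested were called both lower, where 33.2% of tested genes were called and 18% were lower. Scaled to ribosomal protein genes, which shifts the median of all genes to 0.43, the changes were -1.77 and -1.42.

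Col4a5 went the other way in value. It had 7.69 and 9.93 CPM in Virma cKO and 5.51 and 3.65 CPM in Virma WT. Its log2 difference of 0.95 ± 0.42 missed the threshold (adjusted p = 0.0797), as it did in 8 of 11 alternatives, with 0.67 (adjusted p = 0.297) without Virma WT replicate 2 and 0.75 (adjusted p = 0.410) without Virma cKO replicate 2. It passed when scaled to library totals (1.12, adjusted p = 0.0318), to ribosomal protein genes (1.35, adjusted p = 0.00822) or without Virma WT replicate 1 (1.26, adjusted p = 0.0425). Col4a5 made up 1.15 to 1.5% of the collagen IV signal per length in Virma cKO and 0.139 to 0.204% in Virma WT. Col4a1 and Col4a2, which fell, made up 98.41 to 98.73% and 99.78 to 99.83% of that signal, so the share does not measure Col4a5 alone. Col4a4 had 4 to 13 counts per library in Virma cKO and 0 and 14 in Virma WT (log2 difference 0.19 ± 1.39, adjusted p = 0.939), and its sign turned when single libraries were left out.

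Fibroblast and fibrillar collagen markers, 14 genes, summed to 0.306 to 0.311% of counts in Virma cKO and 0.112% in Virma WT, and 14 of 14 rose, for example Col3a1 by 1.41 ± 0.07. PrE markers summed to 0.0234 to 0.0245% in Virma cKO and 0.314 to 0.327% in Virma WT, and 10 of 10 fell. Of 9 tested epiblast and pluripotency markers 7 fell and 0 rose, with a median log2 change of -0.9 beside 0.02 over all genes. The part of these markers in the changes of the collagen IV genes was not tested. Of 18 tested folding and secretion genes 9 fell and 3 rose, with P4ha2 at -2.44 ± 0.13, Serpinh1 at -1.19 ± 0.07 and P4ha1 at -1.73 ± 0.13. The laminin chains Lama1, Lamc1 and Lamb1, which form the laminin of early basement membranes, changed by -4.31 ± 0.07, -2.48 ± 0.06 and -2.27 ± 0.06, among 5 partners that fell and 3 that rose of 14. In contrast, 8 of 10 degrading enzymes and inhibitors rose and 0 fell, including Mmp2, a gelatinase that cleaves collagen IV (1.31 ± 0.13), and Timp2, its inhibitor (1.21 ± 0.12). Of 7 crosslinking genes Lox (1.06 ± 0.13) and Loxl1 (1.29 ± 0.31) rose and 0 fell, Pxdn being at 0.27 ± 0.13 (adjusted p = 0.120). Of 10 collagen receptors 5 rose and 0 fell, Ddr2, a receptor tyrosine kinase for collagen, by 1.12 ± 0.12. The 14 fibroblast and fibrillar collagen markers had a median log2 change of 1.28. Their part in the rises of the enzymes, inhibitors, crosslinking genes and receptors was not tested.

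In the libraries labelled Mettl3 cKO the falls were small. Col4a1 had 1439.8 and 1516 CPM in Mettl3 cKO and 2016 and 1869 CPM in Mettl3 WT. Col4a2 had 762 and 825 CPM in Mettl3 cKO and 1103 and 985 CPM in Mettl3 WT. The changes were -0.39 ± 0.05 and -0.40 ± 0.06 (adjusted p = 2.71e-05 and 0.000116), and 3.95% of tested genes were called, 1.44% lower. Col4a5 had 10.8 and 9.21 CPM in Mettl3 cKO and 7.43 and 6.34 CPM in Mettl3 WT, a log2 difference of 0.54 ± 0.20 that missed the threshold (adjusted p = 0.172). Fibroblast markers summed to 0.381 to 0.401% of counts in Mettl3 cKO and 0.265 to 0.279% in Mettl3 WT, with 13 of 14 higher, and PrE markers to 0.373 to 0.381% in Mettl3 cKO and 0.551 to 0.559% in Mettl3 WT, with 8 of 10 lower; their part was not tested. Of 18 tested folding and secretion genes 5 fell and 2 rose (P4ha2 -0.39 ± 0.07, Serpinh1 -0.24 ± 0.05, Fkbp10, a prolyl isomerase, 0.37 ± 0.09). Lama1, Lamc1 and Lamb1 changed by -0.44 ± 0.05, -0.35 ± 0.05 and -0.28 ± 0.05.

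In the libraries labelled siIgf2bp3, Col4a1 had 1330.0 and 1351 CPM, and siNC libraries had 4468 and 3591 CPM. Col4a2 had 727 and 705 CPM in siIgf2bp3 and 2598 and 1905 CPM in siNC. Changes of -1.59 ± 0.11 and -1.65 ± 0.13, falls of 3.01- and 3.15-fold (adjusted p = 0.000101 and 0.000172), placed Col4a1 above 0.457% and Col4a2 above 0.395% of tested genes, of which 7.32% were called and 4.52% were lower. Across genes, the change in this comparison declined with GC content (Spearman's rho -0.468 across 12611 genes, which are not independent replicates and share the 4 libraries), and Col4a1 and Col4a2 are rich in G and C, with 57.7% and 60.6% beside a median of 51.0% for tested genes. After a correction for GC content the changes were -1.37 ± 0.06 and -1.34 ± 0.06 (adjusted p = 2.00e-10 and 2.42e-10).

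Col4a5 had 3.54 and 2.99 CPM in siIgf2bp3 and 4.33 and 3.87 CPM in siNC (log2 difference -0.33 ± 0.32, adjusted p = 0.549). Fibroblast markers summed to 0.0808% of counts in siIgf2bp3 and 0.0697 to 0.0890% in siNC, with 2 of 14 higher, and PrE markers to 0.171% in siIgf2bp3 and 0.332 to 0.367% in siNC, with 10 of 10 lower; their part was not tested. Of 18 tested folding and secretion genes 10 fell and 0 rose, with Serpinh1 at -1.43 ± 0.12 and P4ha2 at -1.15 ± 0.10. Loxl2 (-1.05 ± 0.11), Pxdn (-0.75 ± 0.11) and Tgm2 (-0.69 ± 0.16), were the 3 of 7 crosslinking genes that fell. Of 13 tested partners 8 fell and 0 rose, with Lamb1 at -1.44 ± 0.09.

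**Figure D2:**
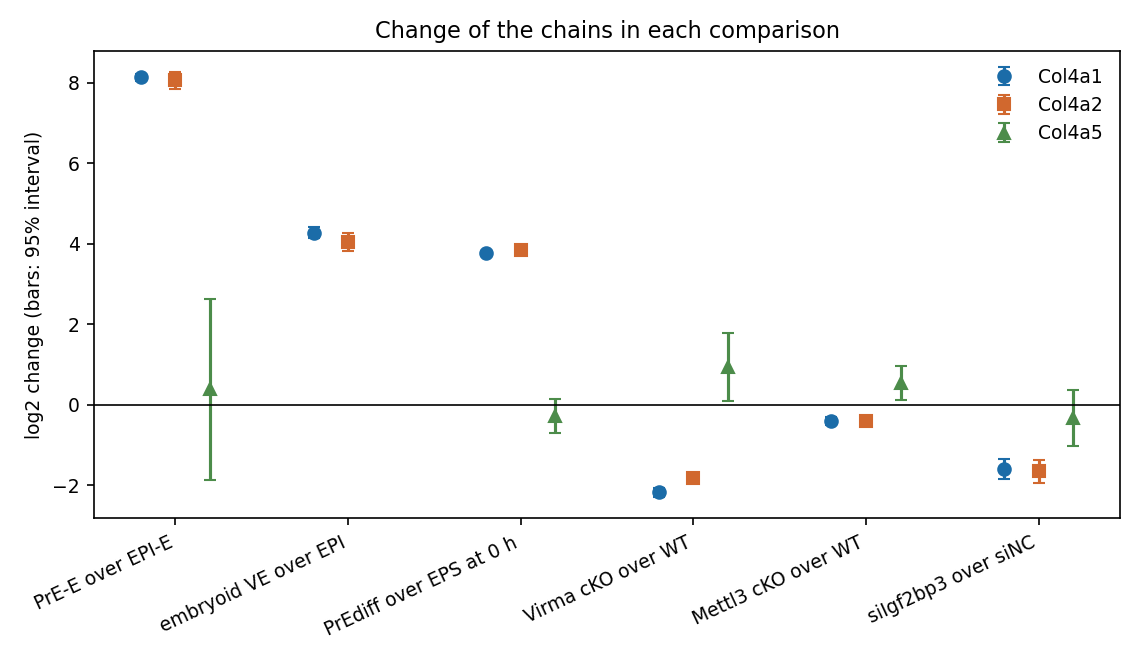
Log2 change of Col4a1, Col4a2 and Col4a5 (points, with 95% intervals) in 6 comparisons. Col4a1 and Col4a2 lie side by side, between 8.14 and 8.06 for PrE-E over EPI-E and -2.17 and -1.82 for Virma cKO over WT, while the interval of Col4a5 includes 0 in 3 of the 5 comparisons in which it was tested.

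The sizes of the falls were compared in joint fits of pairs of tables. The Virma cKO change minus the change in libraries labelled Mettl3 cKO was -1.74 ± 0.08 for Col4a1 and -1.39 ± 0.09 for Col4a2 on the log2 scale (adjusted p = 2.78e-11 and 3.35e-09, with 19.7% of genes called). The siIgf2bp3 change minus the Mettl3 cKO change was -1.18 ± 0.12 and -1.24 ± 0.15 (adjusted p = 4.81e-05 and 0.000284, with 2.77% called). For Virma cKO minus siIgf2bp3, Col4a1 differed by -0.59 ± 0.12 (adjusted p = 0.00220, with 23.3% of genes called), which was -0.20 (adjusted p = 0.287) when scaled to ribosomal protein genes. Col4a2 differed by -0.18 (95% interval -0.48 to 0.13, adjusted p = 0.425), by -0.41 (adjusted p = 0.00120) without siNC replicate 1 and by 0.04 without siNC replicate 2. Col4a5 differed by 1.27 ± 0.55 (adjusted p = 0.110), and by 1.66 (adjusted p = 0.0322) when scaled to ribosomal protein genes.

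The ratio of Col4a1 to Col4a2 counts within a library needs no scaling between libraries. It lay between 1.71 and 1.91 in all libraries of PrE-E, PrEdiff, Mettl3 cKO, Mettl3 WT, siIgf2bp3, siNC and Virma WT. In Virma cKO it was 1.40 and 1.36, below the 1.80 and 1.73 of Virma WT, and the 95% counting intervals (1.34 to 1.47 and 1.30 to 1.42 in cKO, 1.75 to 1.84 and 1.69 to 1.77 in WT) did not overlap. Counting intervals of replicates of 1 group failed to overlap as well, in siNC (1.69 to 1.75 and 1.85 to 1.92) and EPI-E (1.67 to 2.19 and 1.24 to 1.63). EPI-E had ratios of 1.91 and 1.42. Such intervals therefore cannot separate a group difference from spread between libraries. With 2 libraries against 2, an exact permutation test cannot go below p = 0.333, and none was run. EPSC libraries had ratios of 1.36 and 1.30 and EPS libraries at 0 h had 1.86 and 2.01, although both carry the same cell label, in separate tables. Embryoid VE libraries ranged between 2.18 and 2.71 and EPI libraries between 1.69 and 3.26. The mean log2 ratio was 0.23 higher in VE (exact permutation test, two-sided, p = 0.154, n = 6 each). Leaving out single libraries gave 0.17 to 0.35 (exact permutation test, two-sided, p = 0.00433 to 0.294). The 0.35 came without EPI replicate 2, the library with the highest ratio, and is not taken as a difference between VE and EPI.

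**Figure D3:**
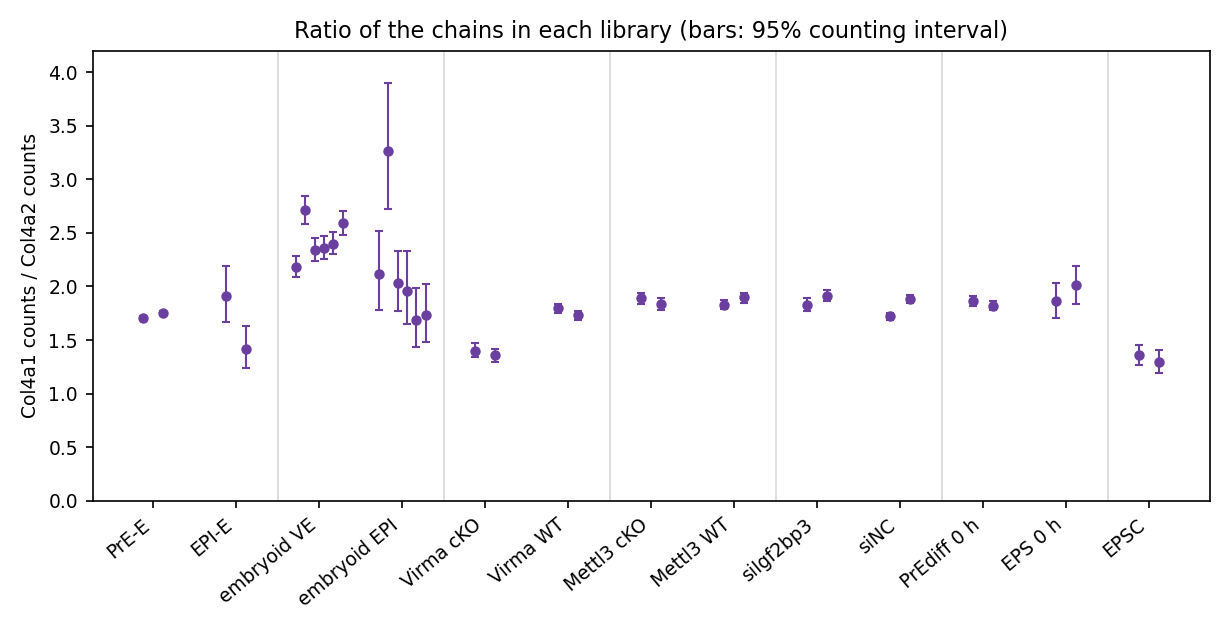
Ratio of Col4a1 to Col4a2 counts in each library (points) with 95% counting intervals, in 13 groups separated by count table. Virma cKO (1.40 and 1.36) and EPSC (1.36 and 1.30) lie below most other libraries, and EPI replicate 2 (3.26) above all others.

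Under actinomycin D the shares of Col4a1 and Col4a2 in all counts were lower at 2 h than at 0 h in both states, while their CPM, which the trimmed-mean factors set relative to the average transcript, were lower by less. Col4a1 made up 0.117% of counts at 0 h, 0.0840% at 2 h and 0.111% at 3 h in PrEdiff, and 0.00758%, 0.00512% and 0.0115% in EPS. Col4a2 made up 0.0636%, 0.0454% and 0.0583% in PrEdiff, and 0.00392%, 0.00257% and 0.00594% in EPS. Without a spike-in, a slope of 0 means a decline like that of the average transcript, not a stable RNA. In PrEdiff, Col4a1 had 936 and 930.1, 884 and 916, 858 and 871, and 1199.9 and 1167 CPM at 0, 1, 2 and 3 h. Col4a2 had 502 and 511, 476 and 481, 461 and 471, and 627 and 619 CPM. At 2 h the mean CPM stood at 92.7% and 92.0% of those at 0 h, and at 3 h at 127% and 123%, although at 3 h the shares of counts lay below those at 0 h. The slope over all 4 times was 0.10 ± 0.08 log2 units per hour for Col4a1 (adjusted p = 0.372) and 0.09 ± 0.09 for Col4a2 (adjusted p = 0.467), while 36.9% of genes were called. Over 0 to 2 h the slopes were -0.10 ± 0.03 and -0.10 ± 0.03 (adjusted p = 0.00330 and 0.00824), so the sign rests on the libraries of 3 h, and it was also negative when scaled to library totals (-0.04 and -0.06) or to ribosomal protein genes (-0.27 and -0.29, with the median of all genes at -0.36). More genes had a called PrEdiff slope over 0 to 2 h than over all times, as counted in the last section.

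In EPS, Col4a1 had 68.4 CPM in both libraries at 0 h, 60.9 and 61.8 at 1 h, 61.1 and 58.6 at 2 h, and 132 and 127 at 3 h. Col4a2 had 36.7 and 34.1, 29.3 and 29.2, 29.6 and 30.4, and 67.6 and 66.4 CPM at the same times. Every library of 3 h lay above every earlier one for both genes. The slope over all times was 0.29 ± 0.08 for Col4a1, 0.29 ± 0.09 for Col4a2 and 0.39 ± 0.11 for Col4a5 per hour (adjusted p = 0.0117, 0.0146 and 0.0128, with 36.7% of genes called, 18.2% higher), but each of these calls was lost without either EPS library of 3 h, with slopes of 0.21 and 0.22 for Col4a1, 0.21 and 0.22 for Col4a2 and 0.30 and 0.34 for Col4a5 (adjusted p = 0.0541 to 0.0840), and without the EPS libraries of 3 h the slopes were -0.10, -0.12 and -0.02 (adjusted p = 0.187, 0.121 and 0.911) with both left out. Scaled to ribosomal protein genes, the slopes over all times were 0.07, 0.07 and 0.16 (adjusted p = 0.809, 0.803 and 0.565), with the median of all genes at -0.17.

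The slopes of the 2 states over all times did not differ past the threshold. PrEdiff minus EPS was -0.19 (95% interval -0.43 to 0.06) for Col4a1, -0.20 (-0.47 to 0.06) for Col4a2 and -0.45 (-0.82 to -0.08) for Col4a5, with adjusted p = 0.571, 0.553 and 0.284, and 1.27% of genes were called. Leaving out the EPS libraries of 3 h alone sets times of 0 to 3 h in PrEdiff against 0 to 2 h in EPS. With these unlike ranges the difference was 0.20 (adjusted p = 0.0504) for Col4a1, 0.21 (adjusted p = 0.0486) for Col4a2 and -0.03 (adjusted p = 0.906) for Col4a5. Over 0 to 2 h in both states it was -0.04, -0.02 and -0.21 (adjusted p = 0.584, 0.879 and 0.584). Taking 3 h against 0 h only, the difference per hour was -0.15 for Col4a1, -0.17 for Col4a2 and -0.38 for Col4a5 (adjusted p = 4.30e-25, 1.82e-19 and 0.000454), a contrast that rests on the libraries of 3 h. In that contrast 6681 genes were called, against 180 over all times. More genes than over all times were also called with the unlike ranges and over 0 to 2 h, as counted in the last section. Col4a5 in PrEdiff lay between 1.40 and 2.41 CPM at all times (slope -0.06 ± 0.13, adjusted p = 0.779). As a share of counts, 15 basement membrane partners summed to 0.727, 0.628 to 0.629, 0.581 to 0.584 and 0.693 to 0.694% of counts in PrEdiff and 0.252, 0.184 to 0.186, 0.178 and 0.306 to 0.308% in EPS over the 4 times.

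**Figure D4:**
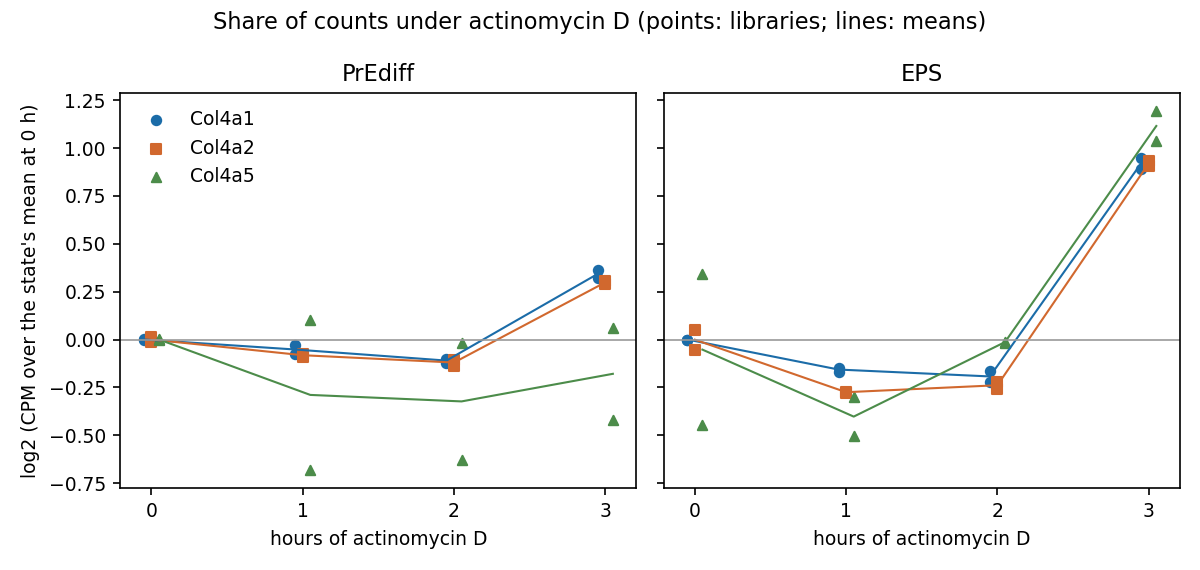
Log2 of CPM over the state's mean at 0 h against hours of actinomycin D, in PrEdiff (left) and EPS (right), with points for libraries and lines through means. On this scale the means of Col4a1 and Col4a2 are 92.7% and 92.0% of 0 h at 2 h and 127% and 123% at 3 h in PrEdiff, and 87.5% and 84.7% at 2 h and 189% and 189% at 3 h in EPS.

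Col4a5 followed other libraries than Col4a1 and Col4a2 did. Its highest levels were 11.9 and 10.3 CPM in EPSC, 10.8 and 9.21 in the libraries labelled Mettl3 cKO and 9.93 and 7.69 in Virma cKO, and its lowest were in embryoids. EPSC and EPS at 0 h, which share a cell label, had 11.9 and 10.3 CPM against 1.99 and 3.43 CPM. Fibroblast markers summed to 0.185% of counts in EPSC and 0.0285 to 0.0293% in EPS at 0 h, and to at most 0.00146% in embryoids. EPS at 3 h had 6.19 and 5.57 CPM of Col4a5 with 0.0304 to 0.0305% of fibroblast markers. Whether Col4a5 comes from cells with these markers was not tested.

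**Figure D5:**
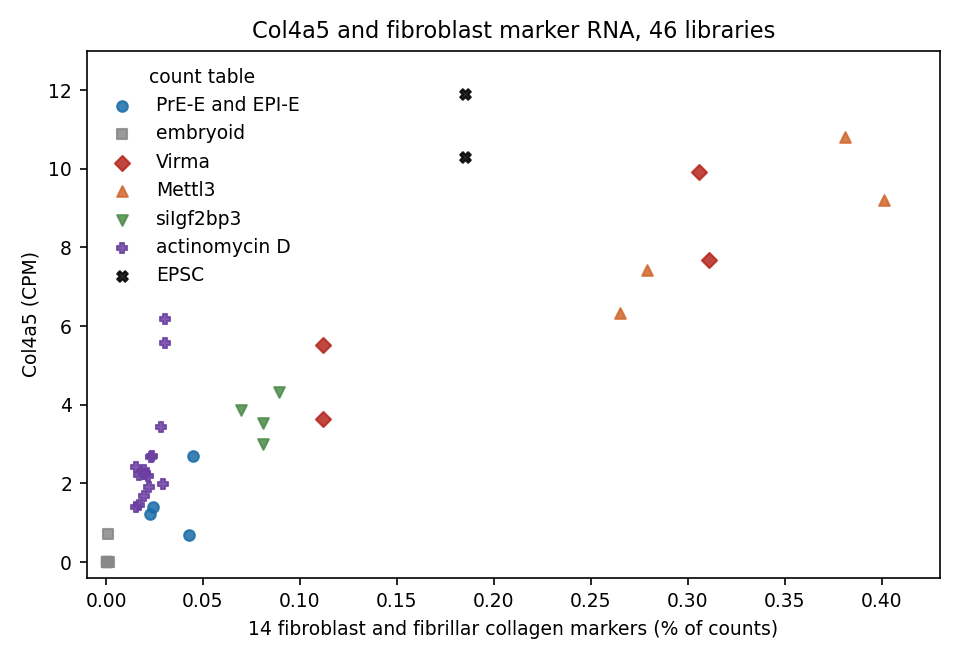
Col4a5 CPM against the summed share of counts of 14 fibroblast and fibrillar collagen markers in 46 libraries, with a symbol for each count table. Embryoid libraries lie near 0 on both axes, and the libraries labelled Mettl3 cKO and Virma cKO lie highest on the marker axis, at 0.306% and above.

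The genes whose levels were most like those of each chain were found over the 44 libraries of the 6 tables with more than 1 group, as Pearson's r of log2(CPM + 1) centred on each table's mean, among 8895 genes. Col4a1 and Col4a2 had r = 0.997 with each other. For Col4a1 the closest were Lamb1 (0.991), Cubn, an endocytic receptor of visceral endoderm (0.990), Dab2, its adaptor (0.984), Pth1r, the parathyroid hormone receptor (0.983), and Srgn, a secretory granule proteoglycan (0.982). For Col4a2 they were Lamb1 (0.988), Cubn (0.986), Pth1r (0.982), Plod2 (0.981) and Pdgfra, the PDGF receptor (0.978). Among the closest to Col4a5 were Ddr2 (0.700), Col3a1 (0.661), Col6a1 (0.650) and Tsc2, a regulator of mTORC1 (0.649), and its r with Col4a1 and Col4a2 was -0.230 and -0.240. These values describe libraries that share groups and tables.

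Transcript features of the members were taken from GENCODE models of GRCm38. GGACT, a spelling of the motif at which m6A is laid down, occurred 18 times in the Col4a1 transcript, all 18 in the coding part, and 14 times in Col4a2. Per kilobase this was 2.72 in Col4a1, 2.17 in Col4a2 and 3.37 in Col4a5, beside a median of 1.02 over protein-coding genes. The members with few counts also lay above that median, with 2.69 in Col4a3, 1.78 in Col4a4 and 2.56 in Col4a6. A match is not a modified site.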

How the data were processed

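RNA was sequenced as total RNA libraries prepared with 2 kits, per the labels' protocols; the kit of each library, the annotation and how strand was handled are not given in the sources used here, so overlapping genes such as the Col4a1 and Col4a2 5' ends cannot be fully told apart. Per the submitters' processing notes, the build was mm39 and the tools were STAR 2.7.11b, Subread, DESeq2, Trim Galore and FastQC 0.12.1. Values are whole-number gene counts in 7 tables deposited by the authors. All columns matched a sample's labels. Only the columns of the Virma libraries carry the word input, and the labels do not say why. The EPSC table repeats 19 symbols, which were dropped.

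Tests used the quasi-likelihood fit of edgeR 4.0.16 (R 4.3.3), two-sided, with TMM factors and a minimum count of 10 and 15 in all (Benjamini-Hochberg adjustment over all tested genes, threshold 0.05). Tables were fitted alone, the 16 actinomycin D libraries together, and responses were compared in joint fits of 2 tables. Standard errors were derived from the estimate and its F statistic. Levels are CPM with TMM factors, divided by GENCODE M21 exon length where genes are compared. The fits were tested on simulated counts.

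The members, gene lists and tests were chosen with earlier results of these data known. All 6 members were named in every comparison, with the 5 most alike genes (1 of those for Col4a5 is not reported here) and up to 3 members of a list by adjusted p. Over all genes, replicate numbers did not pair libraries (correlations of deviations -0.09 to 0.03). The Col4a1 to Col4a2 ratio was highest in replicate 2 of both VE (2.71) and EPI (3.26). The ratio test took no pairing, and a replicate effect on the ratio was not tested. Alternatives were RLE factors, library totals, ribosomal protein scaling, DESeq2 1.42.0, no filter, a filter of 1 CPM, the replicate block, a GC correction, other time ranges and leaving out each library. The fits without the EPS 3 h libraries were added after seeing the data.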

Additional observations from a re-analysis of the deposited data

Results flagged for a closer look

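Of 14 sets of 6 embryoid libraries examined for a value far from the rest, 5 had one. Chance marks about 1 in 20 sets of continuous values, a rate that does not apply to the 4 sets of Col4a3, Col4a5 and Col4a6, in which most libraries were at 0 counts and a single low count stands apart. All 5 were in replicate 2 of VE or EPI. Col4a3 was at 2.57 CPM (19 counts) in VE replicate 2, and in EPI replicate 2 Col4a3 was at 0.102 CPM (1 count), Col4a5 at 0.713 CPM (7 counts) and Col4a6 at 0.407 CPM (4 counts), while Col4a3, Col4a5 and Col4a6 had 0 counts in the other 5 EPI libraries. The ratio of Col4a1 to Col4a2 was 3.26 in EPI replicate 2, above the 1.69 to 2.12 of the other EPI libraries.

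Responses that differed between systems by a test of the difference were those of Virma cKO against Mettl3 cKO (-1.74 for Col4a1 and -1.39 for Col4a2 on the log2 scale), Virma cKO against siIgf2bp3 (-0.59 for Col4a1), siIgf2bp3 against Mettl3 cKO (-1.18 for Col4a1 and -1.24 for Col4a2), and embryoid VE over EPI against PrE-E over EPI-E (-3.69 for Col4a1 and -3.84 for Col4a2).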

How the results depend on the processing

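The changes of Col4a1 and Col4a2 kept their direction and call in all alternatives run for PrE-E, embryoid VE, PrEdiff at 0 h, Virma cKO, Mettl3 cKO and siIgf2bp3; the range was -2.21 to -1.77 for Col4a1 in Virma cKO, -0.45 to -0.34 in Mettl3 cKO and -1.74 to -1.37 in siIgf2bp3. The replicate block changed no call of a member; it moved the count of called genes to 1467 in siIgf2bp3, to 100 for the slope difference and to 211 for siIgf2bp3 against Mettl3 cKO. Ribosomal protein scaling moved the median log2 change of all genes to 0.23 in PrE-E, 0.27 in VE and 0.43 in Virma cKO. Low counts limit Col4a3, Col4a4, Col4a5 and Col4a6.

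Signs turned, in low or near-zero values, for Col4a5 in PrE-E (-0.93 without PrE-E replicate 2; leaving out single libraries gave -0.93 to 1.05) and at 0 h (-0.62 to 0.17), and for Col4a4 in Virma cKO (-0.86 to 6.03; -0.77 without Virma WT replicate 1) and in Virma cKO against Mettl3 cKO (-2.05 to 7.84). The EPS slopes of Col4a1, Col4a2 and Col4a5 were -0.06, -0.09 and 0.01 over 0 to 2 h, -0.09, -0.11 and 0.00 at 2 h against 0 h, and -0.10, -0.12 and -0.02 without the EPS 3 h libraries. The PrEdiff slopes of Col4a1 and Col4a2 were -0.04 and -0.06 with library totals, -0.27 and -0.29 with ribosomal protein scaling, -0.10 and -0.10 over 0 to 2 h and -0.09 and -0.10 at 2 h. Their slope differences were 0.20 and 0.21 without the EPS 3 h libraries, with 3 h kept in PrEdiff, and 0.01 for Col4a2 at 2 h. Col4a2 in Virma cKO against siIgf2bp3 was 0.22 with ribosomal protein scaling and -0.41 to 0.04 without single libraries.

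Counts of called genes moved as follows. Mettl3 cKO had 518, and 273 with ribosomal protein scaling and 247 with DESeq2. siIgf2bp3 had 945, 1699 without a filter, 1974 with the GC correction and 242 to 4936 without single libraries (2424 without siNC replicate 1, 4936 without siNC replicate 2, 242 and 315 without siIgf2bp3 replicates 1 and 2). The EPS slope had 5180, and 9442 over 0 to 2 h, 9526 at 3 h against 0 h, 10100 at 2 h against 0 h and 8748 without the EPS 3 h libraries. The PrEdiff slope had 5210, and 9154 with ribosomal protein scaling, 8381 over 0 to 2 h, 9492 at 3 h, 9445 at 2 h and 3150 to 5466 without single libraries. The slope difference had 180, and 2 with ribosomal protein scaling, 528 with DESeq2, 926 over 0 to 2 h, 6681 at 3 h, 4281 at 2 h, 4140 without the EPS 3 h libraries and 89 to 206 without single libraries. Virma cKO against Mettl3 cKO had 2726, 4371 with ribosomal protein scaling and 1633 to 3377 without single libraries; Virma cKO against siIgf2bp3 had 3237, and 1854 to 3327. siIgf2bp3 against Mettl3 cKO had 374, 145 with ribosomal protein scaling, 899 without a filter and 65 to 2818 without single libraries. The log2 ratio of Col4a1 to Col4a2 differed by 0.17 to 0.35 between VE and EPI without single libraries. The cause was not tested.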
